A study of Mus musculus with 4 samples.

Results

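Transcripts of 10 genes of the Bcl2 family of apoptosis regulators were followed in mouse colonoids given butyrate. The genes were *Bcl2*, *Bcl2l1*, *Mcl1*, *Bax*, *Bak1*, *Bid*, *Bad*, *Bbc3*, *Pmaip1* and *Bcl2l11*, found by symbol in the count table. All 10 were present among its 36144 rows, and all 10 had a mean normalised count of at least 50, as did 11652 genes in all. The study investigated how butyrate, a short-chain fatty acid made by gut bacteria from dietary fibre, acts on the differentiation of the gut epithelium. The 4 libraries were poly-A RNA-seq libraries of colonic organoids from a male mouse of 24 weeks, wild type by the labels, whereas the study's methods describe Hes1-GFP reporter mice. There was 1 library for each of untreated and 2 mM sodium butyrate at day 2 (48 h) and at day 3 (72 h). All cultures shared a medium with 40 ng/ml EGF, 200 ng/ml noggin, 500 ng/ml R-spondin, 3 µM of the GSK3 inhibitor CHIR99021 and 10 µM Y-27632, a kinase inhibitor that limits death of dissociated epithelial cells. The sources do not state whether the libraries came from separate cultures. Organoids hold epithelium without its stroma, blood supply or immune cells, and RNA was taken after enzymatic dissociation.

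The Bcl2 family controls the mitochondrial route of apoptosis. Pro-survival members (*Bcl2*, *Bcl2l1*, which encodes Bcl-xL, and *Mcl1*) bind and hold the pro-death members. The effectors *Bax* and *Bak1* form pores in the outer mitochondrial membrane, which release cytochrome c. The BH3-only members *Bid*, *Bad*, *Bbc3* (Puma), *Pmaip1* (Noxa) and *Bcl2l11* (Bim) sense stress, neutralise pro-survival proteins and in part activate the effectors. Butyrate is the main fuel of colonocytes and also an inhibitor of histone deacetylases, and at high concentration it is known to trigger apoptosis in colon cancer cell lines. Much of the family's control lies in protein stability, cleavage and phosphorylation, none of which is read by transcript counts.

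The members bind each other through the BH3 motif, a short helix whose core holds an invariant leucine and aspartate. A search of each member's principal coding transcript for a leucine codon, 3 further codons, a glycine, alanine or serine codon and an aspartate codon found exactly 1 match in 9 of the 10 members and 2 in *Pmaip1*. Of 20084 coding genes, 34.3% held at least 1 such match, so that the pattern alone does not mark the family. The matches are shown for the 3 pro-survival members and for 4 pro-death members, the effector and BH3-only members with the largest changes among their kind: *Bax* with butyrate, *Bid* with butyrate at 48 h, *Bad* with butyrate at 72 h and *Bbc3* over time. They are given in the direction of the gene with 15 bases to each side, from GRCm38. Capitals mark the 6 codons of the core.
*Bcl2* (chr1:106712569-106712616, minus strand, exon 1): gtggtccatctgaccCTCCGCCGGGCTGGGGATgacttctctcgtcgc
*Bcl2l1* (chr2:152829691-152829738, minus strand, exon 2): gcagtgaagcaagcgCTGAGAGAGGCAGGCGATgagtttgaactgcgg
*Mcl1* (chr3:95659421-95659468, plus strand, exon 1): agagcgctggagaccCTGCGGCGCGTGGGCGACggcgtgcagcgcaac
*Bax* (chr7:45465991-45466038, minus strand, exon 3): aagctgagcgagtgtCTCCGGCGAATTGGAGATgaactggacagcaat
*Bid* (chr6:120897283-120897330, minus strand, exon 4): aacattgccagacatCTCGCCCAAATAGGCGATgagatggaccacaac
*Bad* (chr19:6950777-6950824, plus strand, exon 3): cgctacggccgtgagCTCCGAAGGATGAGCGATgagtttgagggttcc
*Bbc3* (chr7:16313758-16313805, plus strand, exon 3): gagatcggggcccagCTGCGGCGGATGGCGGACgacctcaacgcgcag
The core lay within a single coding exon in all of these genes. The codon before that of aspartate was one for glycine in *Bcl2*, *Bcl2l1*, *Mcl1*, *Bax* and *Bid*, for serine in *Bad* and for alanine in *Bbc3*.

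Each library held between 20790225 and 24207840 counts, and the share of counts from the mitochondrial genome was between 14.1% and 18.4%. The epithelial markers *Epcam*, *Cdh1*, *Krt8*, *Krt18*, *Vil1* and *Cdx2* were all abundant, with a summed normalised count between 114716 and 124653. None of 6 immune or 6 mesenchymal and endothelial markers reached a mean normalised count of 50. Their summed normalised counts per library ranged from 41.7 to 71.3 for the immune and from 45.0 to 68.1 for the other list. Of the immune markers, *Itgam* had 36 to 48 counts, *Ptprc* 5 to 15, *Cd79a* at most 5, *Lyz2* and *Cd3e* at most 3, and *Csf1r* 16 in the butyrate library of 72 h against at most 2 in the others. Of the mesenchymal and endothelial markers, *Pecam1* had 20 to 45 counts, *Pdgfra* 9 to 13, *Acta2* 6 to 8, *Col1a1* at most 12, *Col1a2* at most 2 and *Cdh5* at most 1. In bulk RNA, a lower value may stand for fewer cells of a type or for less RNA per cell, which cannot be told apart. With 1 library per condition, no difference at a single time has a replicate check or a test. The intervals given are exact 95% intervals of the pair of counts and cover counting error only.

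The family was not expressed evenly. Levels between genes were compared as the mean normalised count per kilobase of exon over the 4 libraries. *Mcl1* stood highest at 1464, followed by *Bak1* at 1213 and *Bax* at 966, against a median of 157 over 11602 genes. A middle group comprised *Pmaip1* at 222, *Bcl2l1* at 214, *Bad* at 149 and *Bid* at 105. *Bbc3* at 54.1, *Bcl2l11* at 48.3 and *Bcl2* at 32.4 were the lowest. The 4 values of *Mcl1* and *Bak1* overlapped, as did those of neighbours from *Pmaip1* down to *Bid* and from *Bbc3* down to *Bcl2*. The values of *Bak1* and *Bax* did not overlap, nor did those of *Bax* and *Pmaip1* or of *Bid* and *Bbc3*. The order depended on the length used. With the principal transcript in place of all exons, a choice made after seeing the data, *Bax* came first at 1756, ahead of *Mcl1* at 1464 and *Bak1* at 1224. *Bcl2* stayed last at 41.2.

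*Mcl1* made up most of the pro-survival counts. In normalised counts, which favour long transcripts, the 3 pro-survival members held 51.8% of the family's total in untreated colonoids at 48 h and 44.8% with butyrate. At 72 h the shares were 52.8% untreated and 49.8% with butyrate. Per kilobase of exon the pro-survival share was smaller throughout, at 40.3% untreated and 33.5% with butyrate at 48 h, then 41.1% and 37.9% at 72 h. On both scales it was lower with butyrate at both times, by a smaller step at 72 h.

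**Figure D1:**
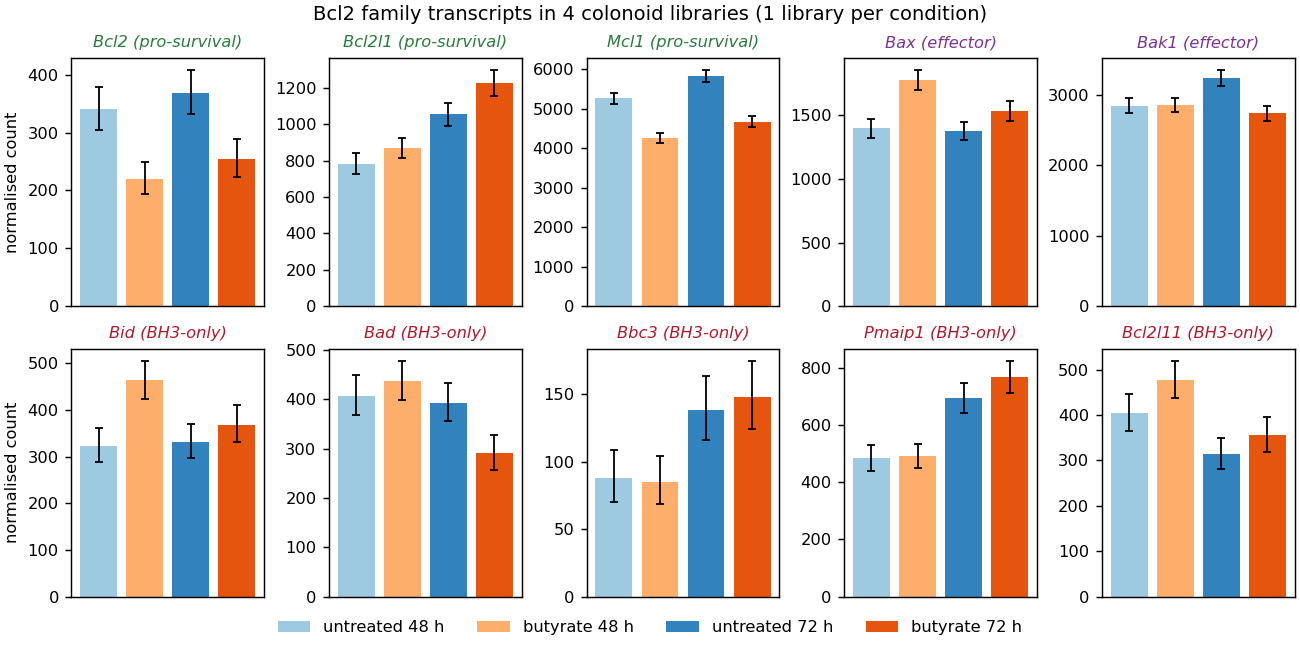
Normalised counts (linear axis from 0, own scale per gene) of the 10 members in the 4 libraries, 1 bar per library, with error bars for the 95% counting interval. *Bcl2* and *Mcl1* were lower in both butyrate libraries than in either untreated library, and *Bbc3* and *Pmaip1* were higher in both 72 h libraries than in either 48 h library.

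The pro-survival members did not move as a group with butyrate. Gene positions below are those of GRCm38. *Bcl2* (chr1:106538178-106714274, minus strand), the founding member and a survival factor of many lineages, had 333 counts in the untreated and 243 in the butyrate library of 48 h, against 374 and 236 in those of 72 h. Both butyrate libraries were below both untreated libraries. On the normalised scale the butyrate level was 0.649 times the untreated level at 48 h (log2 fold change −0.62, interval −0.87 to −0.38) and 0.691 times at 72 h (−0.53, −0.78 to −0.30). *Mcl1* (chr3:95658788-95663176, plus strand), a short-lived protein needed for survival of the intestinal epithelium, had 5144 untreated counts and 4686 butyrate counts at 48 h, followed by 5903 and 4325 at 72 h. Again both butyrate libraries were below both untreated ones after normalisation, at 0.808 times (−0.31, −0.36 to −0.25) and 0.801 times (−0.32, −0.38 to −0.26) the untreated level. *Bcl2l1* (chr2:152780668-152831728, minus strand) differed from these, with 765 untreated counts and 955 butyrate counts at 48 h, followed by 1067 and 1134 at 72 h. Its change was positive at both times, by 0.15 (0.01 to 0.29) and then 0.22 (0.10 to 0.34).

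The upstream sequences of the 2 members that were lower with butyrate at both times are shown. They are the 250 bases before the RefSeq start site on GRCm38, in the direction of the gene, and capitals mark the GC box GGGCGG on either strand.
*Bcl2* (chr1:106714291-106714540, minus strand): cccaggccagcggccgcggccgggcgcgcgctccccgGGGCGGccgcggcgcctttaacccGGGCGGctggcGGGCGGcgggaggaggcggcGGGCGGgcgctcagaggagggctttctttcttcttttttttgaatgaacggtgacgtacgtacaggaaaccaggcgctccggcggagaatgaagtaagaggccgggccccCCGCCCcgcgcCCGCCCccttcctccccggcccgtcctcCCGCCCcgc
*Mcl1* (chr3:95658471-95658720, plus strand): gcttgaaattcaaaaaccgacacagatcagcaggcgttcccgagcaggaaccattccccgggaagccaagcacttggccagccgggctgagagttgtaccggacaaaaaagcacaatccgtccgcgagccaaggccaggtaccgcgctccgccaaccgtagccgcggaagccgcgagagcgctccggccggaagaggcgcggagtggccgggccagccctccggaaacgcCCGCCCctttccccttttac
The *Bcl2* sequence held 7 GC boxes at 74.8% G and C, and the *Mcl1* sequence held 1 at 64.4%. Of 32851 upstream sequences of this length, 32.7% held at least 1 GC box. Neither contained a CCAAT box or TATAAA, which were in 33.8% and 12.4% of all. At the first listed start site the count was 2 for *Bax*, 3 for *Bid*, 3 for *Bad*, 5 for *Bbc3*, 3 for *Bcl2l11* and 0 for *Bak1*, and *Bcl2l1* had 0 at each of its 3 start sites. A link between the number of GC boxes and the change with butyrate was not tested, and which start site was in use is not known here. The matches are a description of the letters in these windows.

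The effectors behaved differently from each other. For *Bax* (chr7:45461697-45466898, minus strand) the 48 h libraries held 1368 untreated and 1960 butyrate counts, and the 72 h libraries 1394 and 1421. Its normalised level was higher in both butyrate libraries than in both untreated ones, by 0.35 on the log2 scale (0.25 to 0.45) at 48 h but only 0.16 (0.05 to 0.26) at 72 h. For *Bak1* (chr17:27019810-27029009, minus strand) the same order gave 2783 and 3150 counts, then 3284 and 2534. Its change was near 0 at 48 h (0.01, −0.07 to 0.08), with a sign that flipped under TMM scaling and under the total count without mitochondrial genes, and its level was lower with butyrate at 72 h (−0.24, −0.32 to −0.17).

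Among the BH3-only members, *Bid* (chr6:120891930-120916853, minus strand), which carries the signal of death receptors to mitochondria once caspase-8 cleaves it, had 316 untreated counts and 511 butyrate counts at 48 h. At 72 h it had 336 and 341. The butyrate library of 48 h was the highest of the 4, a change of 0.52 (0.32 to 0.73), whereas the 72 h change was 0.15 (−0.07 to 0.37). *Bad* (chr19:6941861-6951899, plus strand), whose activity is switched off by growth factor signalling, had 397 untreated and 482 butyrate counts at 48 h, then 398 and 269 at 72 h. Here the butyrate library of 72 h stood alone as the lowest, a change of −0.43 (−0.66 to −0.21) after 0.11 (−0.09 to 0.30) at 48 h. *Bcl2l11* (chr2:128126038-128162547, plus strand), which is induced when growth factor is withdrawn, had 395 untreated and 526 butyrate counts, then 318 and 329, or changes of 0.24 (0.05 to 0.43) and 0.18 (−0.05 to 0.41).

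*Bbc3* and *Pmaip1*, both targets of p53, differed little with butyrate. *Bbc3* (chr7:16308393-16318205, plus strand) had 86 untreated and 94 butyrate counts at 48 h, then 140 and 137 at 72 h, which gave changes of −0.04 (−0.48 to 0.39) and 0.10 (−0.25 to 0.45). At this depth a difference of up to about that interval was not detectable. *Pmaip1* had 472 untreated and 540 butyrate counts, then 702 and 709, with changes of 0.02 (−0.16 to 0.20) and 0.14 (−0.01 to 0.30).

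**Figure D2:**
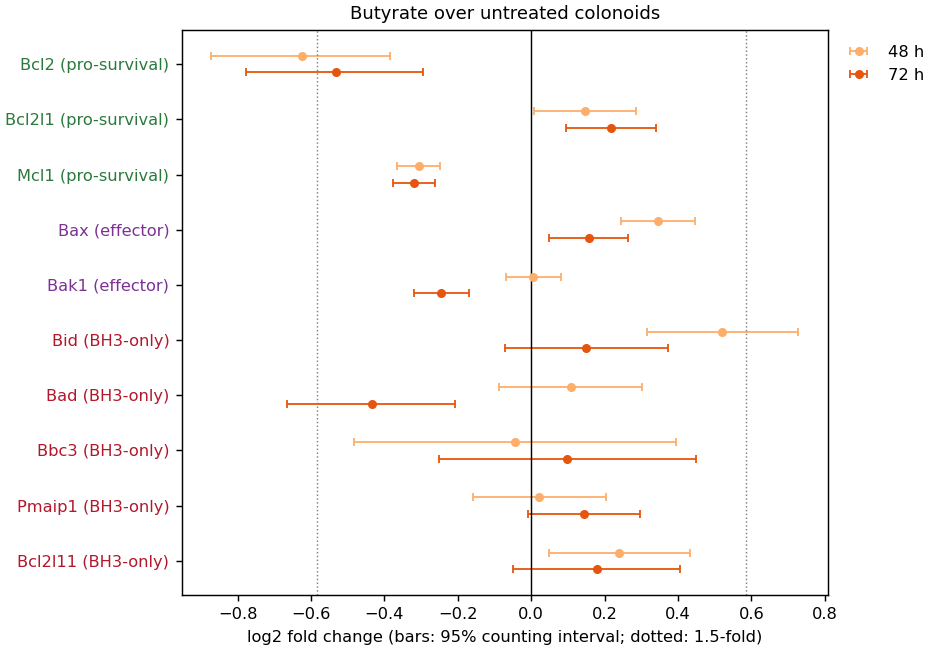
Log2 fold change (x axis) of each member with butyrate at 48 h and at 72 h, with bars for the 95% counting interval and dotted lines at 1.5-fold, names coloured by role. The changes ranged from −0.62 for *Bcl2* to 0.52 for *Bid* at 48 h, and from −0.53 for *Bcl2* to 0.22 for *Bcl2l1* at 72 h.

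The size of these changes was read against all genes. Of the 10 members, 1 (*Bcl2*, lower) was at least 1.5-fold different at 48 h, beside 15.4% of the 11652 genes, and 0 at 72 h, beside 11.0%. The counting interval excluded 0 for 6 of 10 members at 48 h, beside 65.8% of genes, and for 6 of 10 at 72 h, beside 56.3%. It excluded 0 in the same direction at both times for 4 of 10, *Bcl2* and *Mcl1* lower and *Bcl2l1* and *Bax* higher, beside 29.1%. The median absolute log2 fold change of the members was 0.19 at 48 h and 0.20 at 72 h, beside 0.23 and 0.18 over all genes. With 10 members, each share moves in steps of 10%, and these shares lay near those of all genes, so they say nothing particular about the family. One test could be made, chosen after the data were seen, of the butyrate effect over both times in an additive model of treatment and time, which has 1 residual degree of freedom (edgeR's quasi-likelihood test with Benjamini-Hochberg adjustment). It called 0 of 10 members, beside 2.51% of 13979 genes. Without adjustment 2 members, *Bcl2* and *Mcl1*, were under 0.05, beside 16.0% of genes, and their adjusted p in edgeR was 0.181 and 0.263. Both were lower with butyrate at 2 of 2 times, with a log2 fold change in this model of −0.59 for *Bcl2* and −0.32 for *Mcl1*.

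The pro-survival and pro-death members were then set against each other. The median log2 fold change of the 3 pro-survival members was −0.31 at 48 h and −0.32 at 72 h. The median of the 7 pro-death members was 0.11 and 0.14, with all genes at −0.03 and 0.00. The medians thus differed by −0.41 at 48 h and by −0.46 at 72 h, within groups that overlapped. The pro-survival members ranged from −0.62 to 0.15 at 48 h and from −0.53 to 0.22 at 72 h, and the pro-death members from −0.04 to 0.52 and from −0.43 to 0.18. Of the 7 pro-death members, 6 had positive changes at 48 h, or 5 under the scalings that turned the sign of *Bak1*, and 5 had at 72 h. The size of the 72 h difference rested on the summary used. It was −0.22 between the means and −0.28 against the 2 effectors alone. Each median is the value of a single gene, *Mcl1* at both times for the pro-survival side and *Bad* at 48 h and *Pmaip1* at 72 h for the other, and *Bcl2l1* lay above the pro-death median at both times.

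Ratios of a pro-survival to a pro-death member within a library need no scaling between libraries. Of the 21 such pairs, 17 ratios were lower with butyrate at 48 h, 15 with an interval below 0 on the log2 scale, and none of the 4 higher ones had an interval above 0. At 72 h 13 were lower, 11 with an interval below 0, and 8 were higher, 2 with an interval above 0. Of the 21, 13 were lower at both times, 10 of them with both intervals below 0. Over all 67878726 pairs of the 11652 genes, the interval of the ratio excluded 0 in either direction for 65.3% at 48 h and 56.7% at 72 h, and in the same direction at both times for 29.4%. The 15 of 21 ratios at 48 h and, with both directions counted, the 13 of 21 at 72 h were near these shares. The 10 of 21 with both intervals below 0 were above the 29.4%. The pairs share members and libraries and are thus not independent of one another.

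Per kilobase of exon, the ratio of *Bcl2* to *Bid* was 0.409 in untreated colonoids at 48 h. With butyrate the ratio was 0.184, a log2 change of −1.15 (−1.47 to −0.83), the largest of the pairs. At 72 h the ratio was 0.432 untreated and 0.268 with butyrate (−0.69, −1.01 to −0.36). The ratio of *Bcl2* to *Bax*, widely used as a measure of the balance between survival and death, was 0.0419 in untreated and 0.0213 in butyrate colonoids at 48 h (−0.97, −1.24 to −0.71). It was 0.0462 and 0.0286 at 72 h (−0.69, −0.96 to −0.43). For *Mcl1* over *Bax* the untreated ratio was 1.73 at 48 h and 1.95 at 72 h, against 1.10 and 1.40 in the butyrate libraries. The length cancels in each change.

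All 7 ratios with *Bcl2* were lower at both times, 6 of them with both intervals below 0. Of the 7 with *Mcl1*, 6 were lower at both times, 4 of them with both intervals below 0. For *Bcl2l1* at 48 h, 3 of 7 ratios were lower, those to *Bax* (−0.20) and *Bid* (−0.37) with intervals below 0, and none of the 4 higher ones had an interval above 0. At 72 h all 7 were higher, 2 of them with an interval above 0. These were the ratios to *Bad* (0.65, 0.39 to 0.91) and to *Bak1* (0.46, 0.32 to 0.61). The other 5 ratios of *Bcl2l1* at 72 h changed by 0.04 to 0.12, with intervals that included 0.

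**Figure D3:**
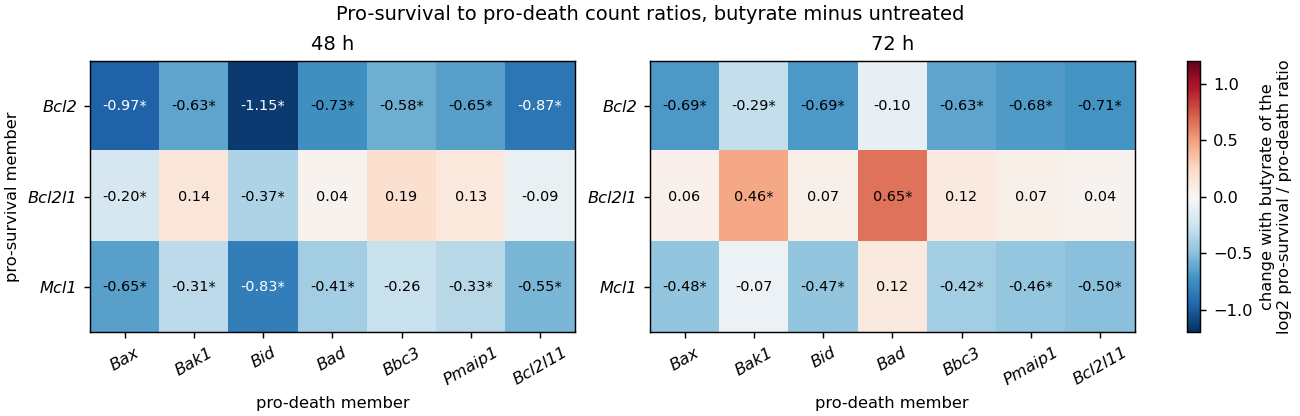
Change with butyrate of the log2 ratio of each pro-survival member (rows) to each pro-death member (columns), at 48 h and 72 h, with a star where the 95% counting interval excludes 0. The *Bcl2* row was negative throughout, from −1.15 to −0.58 at 48 h and from −0.71 to −0.10 at 72 h, and the *Bcl2l1* row was positive throughout at 72 h.

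The interval of the difference between the butyrate changes at 72 h and at 48 h excluded 0 for 4 of 10 members, beside 54.2% of genes. In all 4, each of them pro-death, the 72 h change was the lower. The difference in log2 fold change was −0.54 (−0.85 to −0.24) for *Bad*, −0.37 (−0.67 to −0.07) for *Bid*, −0.25 (−0.36 to −0.14) for *Bak1* and −0.19 (−0.34 to −0.04) for *Bax*. For the 3 pro-survival members it was 0.09 (−0.25 to 0.44) for *Bcl2*, 0.07 (−0.12 to 0.26) for *Bcl2l1* and −0.01 (−0.09 to 0.07) for *Mcl1*. For the other 3 pro-death members it was 0.14 for *Bbc3*, 0.12 for *Pmaip1* and −0.06 for *Bcl2l11*, with intervals that included 0. Markers of epithelial cell states also differed between the times. The summed level of 8 colonocyte markers was 36075 in untreated and 67676 in butyrate colonoids at 48 h, then 53347 and 33839 at 72 h. *Car1* alone made up most of this sum, and without it the 4 values were 15684, 22756, 18713 and 14989. Not every marker followed the sum, since *Ceacam20* was 1.63 times as high with butyrate at 72 h and *Aqp8* changed by 0.08 and −0.03. The median change of the 4 measured stem cell markers was −0.22 at 48 h and 0.66 at 72 h, and that of 7 proliferation markers was 0.06 and 0.32. Against these medians at 48 h, *Ascl2* of the stem cell list changed by 0.19 (0.01 to 0.37). *Mcm5* of the proliferation list changed by −0.29 (−0.38 to −0.21). The part of these shifts in the members' values was not tested.

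The BH3-only members *Bbc3* and *Pmaip1* differed with time in culture in both arms. In untreated colonoids, *Bbc3* was 1.57 times as high at 72 h as at 48 h (0.65, 0.25 to 1.06), and 1.73 times as high with butyrate (0.79, 0.41 to 1.19). *Pmaip1* was 1.44 times as high untreated (0.52, 0.35 to 0.69) and 1.56 times with butyrate (0.64, 0.48 to 0.81). *Bcl2l1* was also higher at 72 h in both arms, by 0.43 (0.29 to 0.57) and 0.50 (0.37 to 0.63), and *Mcl1* was by 0.15 (0.09 to 0.20) and 0.14 (0.08 to 0.20). *Bak1* was higher at 72 h in the untreated arm, by 0.19 (0.12 to 0.26), and changed by −0.06 (−0.14 to 0.01) with butyrate. *Bcl2l11* was lower at 72 h in both arms, at −0.36 (−0.58 to −0.15) and −0.42 (−0.63 to −0.22). *Bad*, *Bid* and *Bax* were lower at 72 h in the butyrate arm, at −0.59 (−0.81 to −0.37), −0.33 (−0.53 to −0.13) and −0.21 (−0.31 to −0.11), with untreated changes of −0.05, 0.04 and −0.02 whose intervals included 0.

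Over time 1 of 10 members was at least 1.5-fold different in the untreated arm (*Bbc3*), beside 6.40% of genes. In the butyrate arm 3 of 10 were, *Bbc3* and *Pmaip1* higher and *Bad* lower, beside 15.1%. The interval excluded 0 for 6 of 10 members in the untreated arm, beside 47.7%, and for 8 of 10 in the butyrate arm, beside 66.7%. The same 4 libraries enter these comparisons and those of butyrate.

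**Figure D4:**
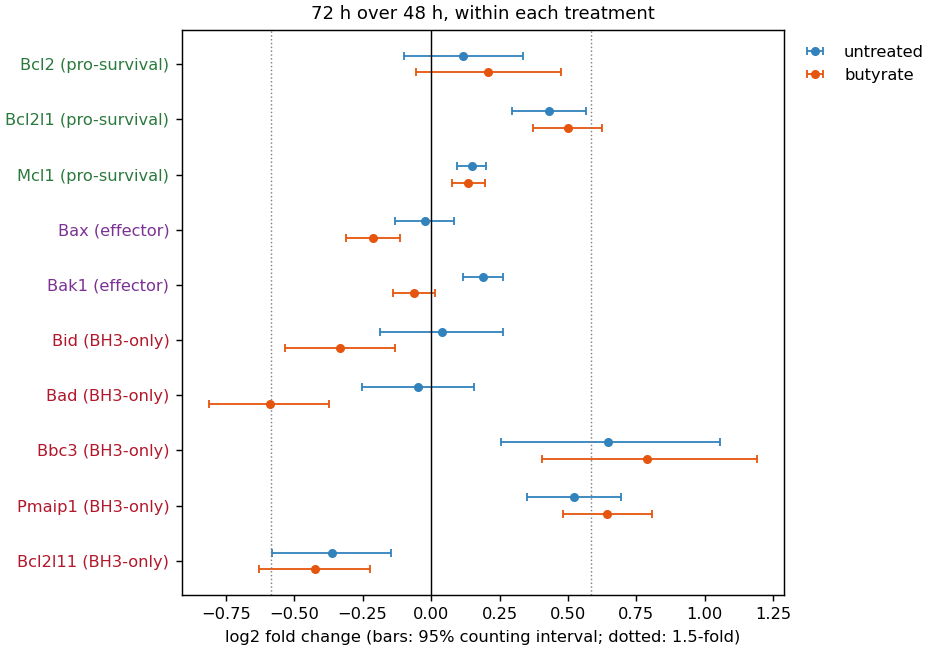
Log2 fold change of each member from 48 h to 72 h (x axis) in untreated and in butyrate-treated colonoids, with bars for the 95% counting interval and dotted lines at 1.5-fold. *Bbc3*, *Pmaip1*, *Bcl2l1* and *Mcl1* were higher and *Bcl2l11* lower at 72 h in both arms, and *Bad* and *Bid* were lower at 72 h in the butyrate arm.

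Outside the 10 members, *Bcl2l2*, which encodes the pro-survival protein Bcl-w, was the 1 measured gene of 5 on the list of further pro-survival genes. Its 48 h libraries held 952 untreated and 584 butyrate counts and its 72 h libraries 853 and 619, so that both butyrate libraries were lower. The change was −0.88 (−1.03 to −0.73) at 48 h, with −0.33 (−0.48 to −0.18) at 72 h. *Bcl2l10* and *Bcl2a1a* had 0 counts in every library, and 3 counts correspond to between 0.124 and 0.144 CPM at these depths. *Bcl2a1b* had at most 1 count and *Bcl2a1d* at most 4.

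Of 6 further pro-death genes 5 were measured, with a median change of 0.11 at 48 h and 0.18 at 72 h. *Bnip3l*, a mitophagy receptor and the most abundant of them, changed by 0.04 (−0.05 to 0.12) and 0.18 (0.10 to 0.26). Named after their values were seen, *Bik* had 32 untreated and 75 butyrate counts at 48 h, then 56 and 76 at 72 h (1.03, 0.44 to 1.70, and 0.56, 0.05 to 1.09), and *Bnip3* changed by 0.32 (0.24 to 0.41) and 0.97 (0.88 to 1.07). *Bik* encodes a BH3-only protein of the endoplasmic reticulum and was the least abundant of the 5. The others of the list were *Bok*, at −0.25 (−0.43 to −0.06) and 0.06 (−0.12 to 0.24), and *Bmf*, at 0.11 (−0.22 to 0.43) and −0.02 (−0.41 to 0.38). Of 4 less characterised Bcl2-like genes 3 were measured, and *Bcl2l13*, the most abundant, changed by 0.18 (0.09 to 0.28) and −0.07 (−0.17 to 0.03).

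Downstream of the mitochondria, all 9 genes of the apoptosome and caspases were measured. The median change was −0.25 at 48 h, with 3 intervals above 0 and 5 below, beside 65.8% of all genes with an interval that excluded 0. At 72 h it was −0.09, with 1 above and 4 below, beside 56.3%. *Cycs*, which encodes cytochrome c, changed by 0.19 (0.11 to 0.26) and −0.21 (−0.29 to −0.13). The 5 inhibitor of apoptosis (IAP) genes had medians of −0.09 and −0.04, and *Birc6*, the most abundant, changed by 0.08 (0.01 to 0.15) and 0.42 (0.36 to 0.49). None of the 7 measured death receptor genes was past 1.5-fold at 48 h or at 72 h, beside 15.4% and 11.0% of all genes. The medians of the 7 were −0.10 and −0.27. *Casp8*, which cleaves Bid, changed by 0.03 (−0.05 to 0.11) and 0.13 (0.05 to 0.21).

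Genes tied to p53 and to stress responses were read from 2 lists. All 10 p53 target genes were measured, which like *Bbc3* and *Pmaip1* lie downstream of p53. At 48 h their median change was −0.11, with 4 intervals above 0 and 5 below, beside 65.8% of all genes with an interval that excluded 0. At 72 h it was 0.24, with 8 above and 1 below, beside 56.3%. *Ccng1*, the most abundant, changed by −0.19 (−0.25 to −0.12) and 0.14 (0.08 to 0.20). *Phlda3*, an inhibitor of Akt, was the only measured gene of the 8 pathway lists past 1.5-fold in the same direction at both times, as were 0 of 10 members and 5.11% of all genes, with 1.61 times the untreated level at 48 h (0.68, 0.42 to 0.96) and 1.82 times at 72 h (0.86, 0.58 to 1.16). *Cdkn1a*, the cell cycle inhibitor p21, named after its values were seen, changed by 0.96 and 0.19.

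The 7 genes of the stress list had medians of −0.11 and −0.02 with butyrate. From 48 h to 72 h their median change was 0.26 untreated and 0.39 with butyrate. In the untreated arm 4 intervals were above 0 and 2 below, beside 47.7% of all genes with an interval that excluded 0. In the butyrate arm 5 were above and 1 below, beside 66.7%. *Atf4*, the transcription factor of the integrated stress response and the most abundant of the 7, was higher at 72 h by 0.51 (0.46 to 0.56) untreated and 0.39 (0.34 to 0.44) with butyrate. The largest change of the list went the other way. *Myc*, named after its values were seen, changed over time by −0.89 untreated and −1.77 with butyrate, and with butyrate by 1.36 at 48 h and 0.48 at 72 h. The link of these genes to the members was not tested.

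**Figure D5:**
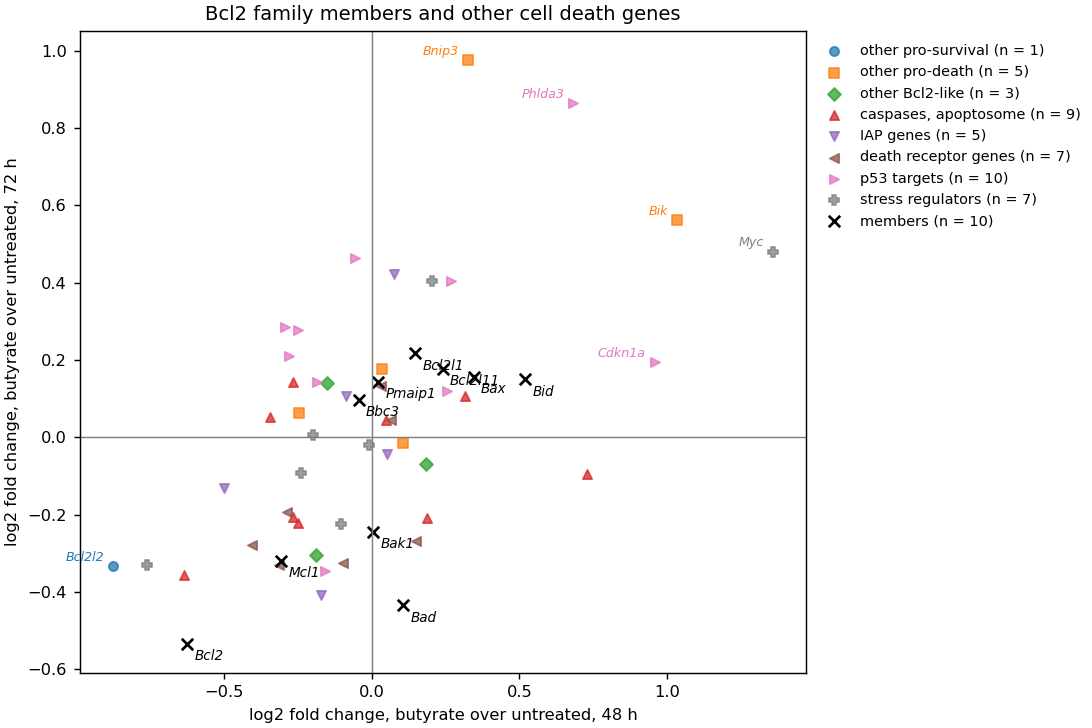
Log2 fold change with butyrate at 48 h (x axis) against 72 h (y axis) for the 10 members (crosses) and for the measured genes of 8 lists of other cell death, p53 and stress genes, with names for genes at 0.8 or beyond at either time. *Phlda3* lay at 0.68 and 0.86, *Bcl2l2* at −0.88 and −0.33, and *Bcl2* furthest down among the members.

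The 2 members with the widest range over the 4 libraries, *Bbc3* and *Bcl2*, were compared with 10789 genes by the distance between their log2 profiles, each centred on its mean over the 4 libraries. Among the nearest to *Bbc3* were *Taf1d* at 0.03 and *Trib3* at 0.13. The nearest to *Bcl2* were *Tmco4* at 0.02, *Larp1b* at 0.03 and *Dpysl3* at 0.05. The counting intervals of both members were far wider than these distances, such as 0.25 to 1.06 for *Bbc3* over time in untreated colonoids. The order of the neighbours is thus not settled. With 4 points each, such likeness is a description of these libraries.

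Some members share exonic sequence with neighbouring genes in the annotation, which could affect how reads were assigned. *Bak1* shared 25.5% of its exon bases with *Ggnbp1*, *Bad* shared 20.5% with *Gpr137*, *Bid* 17.7% with neighbours that include *Bcl2l13*, *Bax* 12.2% and *Bcl2* 6.09%. For the other 5 members the share was 0. Whether counting used strand is not given in the sources used here.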

How the data were processed

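Bulk RNA-seq of mouse colonoids gave 4 libraries, 1 per condition, grouped by the sample labels. The authors deposited raw counts per gene, made by pseudoalignment and summed to genes with tximport, so the whole numbers are rounded estimates. The submitters' processing notes name kallisto 0.44.0 and GRCm38.p6. In the table of 36144 names, 26 had become calendar dates and 2 were repeated; none was a member. No columns of the table were left aside.

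Totals ranged from 20790225 to 24207840 counts. Counts were divided by DESeq2 1.42.0 size factors, and alternatives used edgeR 4.0.16 TMM factors, in R 4.3.3. Size factors came from 13979 genes that passed the filter of the study's methods (over 10 counts, 2 or more libraries). Log2 fold changes were taken on normalised counts plus a pseudocount of 1, in Python 3.11.15 (scipy 1.17.1, pandas 2.3.3, numpy 2.4.6), and plotted with matplotlib 3.10.9. The steps were tested on simulated data. Intervals at the 95% level were Clopper-Pearson for pairs of counts and conditional exact for ratios. Reads carry no molecular identifiers and may repeat a molecule, so these intervals, like the floor of 3 counts, speak of counting error alone. With 1 library per condition, single times were not tested. An additive model of treatment and time over the 4 libraries, added after the data were seen, was fitted with edgeR's quasi-likelihood test on the 13979 genes with TMM scaling and Benjamini-Hochberg adjustment at 0.05. It has 1 residual degree of freedom and takes any difference of the butyrate effect between times as error. The shares over all genes for the 72 h minus 48 h difference, and over all gene pairs for ratios, used a normal approximation of the interval. A gene was called at 1.5-fold, and background shares used the 11652 genes whose normalised count averaged 50 or more, which is also what "measured" means for lists.

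The members and lists were chosen with earlier results of these data known. Named genes were all members, the most abundant gene of each pathway list, any listed gene past 1.5-fold in the same direction at both times, and, by profile, the 3 genes nearest to each of the 2 members of widest range among genes with a mean of at least 100; 1 of these is not reported here. Gene positions and exon lengths came from the GENCODE annotation of GRCm38, upstream sequences from RefSeq (9 of 10 members matched). Both motif strands were searched, and overlapping matches were counted.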

Additional observations from a re-analysis of the deposited data

Results flagged for a closer look

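The butyrate change had opposite signs at 48 h and 72 h, with a counting interval of the difference that excluded 0, for 5 of the 19 genes named by rule, beside 29.1% of all 11652 genes. The difference (72 h minus 48 h, log2) was −0.25 for *Bak1* (−0.36 to −0.14), from 0.01 to −0.24. Its sign at 48 h turned to −0.0020 under TMM scaling and −0.0058 under the total count without mitochondrial genes, so that it would not be listed there. For *Bad* it was −0.54 (−0.85 to −0.24), from 0.11 to −0.43. *Bcl2l13* differed by −0.25 (−0.39 to −0.11) and *Cycs* by −0.40 (−0.51 to −0.29), both higher at 48 h and lower at 72 h. *Ccng1* moved the other way, by 0.33 (0.24 to 0.41), from −0.19 to 0.14. These are differences between single libraries and were not tested over replicates. The changes of *Bak1* and *Bad* at 48 h, and of *Bcl2l13* at 72 h, had intervals that included 0.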

How the results depend on the processing

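Other scalings (TMM, total count, total count without mitochondrial genes) and a pseudocount of 5 were tried for each member and for the medians of both sides. All 96 recomputed values stayed within the counting intervals and 94 kept their sign; for *Bak1* at 48 h the change of 0.01 became −0.0020 under TMM and −0.0058 under the total count without mitochondrial genes. The median of all genes moved by at most 0.05. With a fold of 2, the 1 member past the fold at 48 h became 0. The difference between pro-survival and pro-death medians at 72 h became −0.22 with means and −0.28 with the effectors alone. The other 27 alternatives for counts of members, differences and ratios stayed within 1.5 times the reported count or, for a difference of medians, within the counting interval of the 2 genes at the medians. That interval leaves out the spread of the members and is wide: with the other family genes the 48 h difference was −0.57 in place of −0.41. With the filter of the methods, the background at 1.5-fold was 22.0% in place of 15.4% at 48 h, 18.03% in place of 11.0% at 72 h, 11.99% in place of 6.40% over time in untreated and 21.6% in place of 15.1% in butyrate colonoids.

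No paired analysis was possible because of replicate numbers, of which the groups share fewer than 2. Paired by time instead, in the additive model, the libraries gave 0 of 10 members past an adjusted p of 0.05 in edgeR, with 2 at an unadjusted p under 0.05. No replicate was left out, since each condition holds a single library. Depth limited *Bbc3* most, with 86 to 140 counts. At a single time, treatment cannot be told apart from any other difference between the libraries, and nothing here reads protein levels or cell death.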
